A study of Mus musculus with 23 samples.

Results

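The genes described here carry the growth factor and vessel signals of the fibroblast growth factor (FGF), platelet-derived growth factor (PDGF), vascular endothelial growth factor (VEGF), insulin-like growth factor (IGF), hepatocyte growth factor (HGF) and angiopoietin families. They were taken from a targeted expression panel by a match on symbols that begin with these family names or name their main receptors. This gave 45 of the 3826 genes. The match also took in the RNA-binding protein gene Igf2bp2, the angiopoietin-like gene Angptl4 and Flt3. It left out Pgf, placental growth factor, although that gene was on the panel. Membership followed from the symbol alone, and the families themselves were chosen with earlier results of these data known. Of the 45 genes, 30 passed the filter on low counts and were tested, and 15 did not.

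The panel was read in 23 mouse mammary carcinomas. The control group was 11 tumours from animals given vehicle, and the other group was 12 tumours from animals given abemaciclib, an inhibitor of the cell cycle kinases CDK4 and CDK6, at 90 mg/kg daily by gavage. In both groups doxycycline was started at 6 weeks of age to induce the tumours, animals were randomized to equal mean volume once tumours were established, and tissue was frozen after the 12th dose. The labels name neither the strain nor the transgene nor the promoter that drives it, and they tie no tumour to an animal, so the p-values measure the spread between these tumours.

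FGF, PDGF, VEGF, IGF and HGF ligands bind receptor tyrosine kinases on the cell surface, which signal through the RAS-ERK and PI3K-AKT pathways. In the mammary gland and its tumours, FGF, IGF and HGF act largely on the epithelium, VEGF and the angiopoietins act on endothelium, and PDGF acts on fibroblasts and on the pericytes that wrap vessels. Angiopoietin 1 activates the receptor TIE2, encoded by Tek, and stabilises vessels, whereas angiopoietin 2 can oppose it.

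Each gene was read by 1 amplicon of about 110 bp, so levels are given as CPM (each count divided by the scaled library total and put on a common base) and are compared between tumours and not between genes. Libraries held 3044380 to 4492736 counts in controls and 2756919 to 4990391 in the abemaciclib group, and a floor of 3 counts corresponded to between 0.575 and 1.13 CPM. Together the 45 genes took 1.71% to 3.56% of a control library and 1.3% to 2.73% of an abemaciclib library, of which Igfbp5 alone took 1.37% to 3.16% and 0.925% to 2.29%. Abemaciclib tumours 3 and 10 stood apart in the summed level of the 3 basal markers Krt5, Krt14 and Trp63, which reached 12100 CPM in the abemaciclib group against at most 4580 CPM in controls. Calls and signs that changed without these tumours are named or counted, and the log2 fold changes of Vegfa and Igfbp3 are given both ways. The 7 tested luminal markers, among them Krt8 and Krt18, summed to 4450 CPM or more in every tumour. In whole tumours, fewer cells of a type and less RNA per cell cannot be told apart.

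Before the values, the sequences before a RefSeq start of 3 of the genes are shown. They were picked because Igf1, Pdgfra, Tek and Tie1 varied together across the tumours, as described further on. The windows are the 250 bases before the transcription start in RefSeq (GRCm38.p6), written 5′ to 3′ on the gene's strand. Capitals mark the string CAGGAA, or TTCCTG on the other strand, a string with the GGAA core that ETS-family factors recognise. The Pdgfra window is chr5:75152001-75152250 (+), the Tek window is chr4:94739039-94739288 (+) and the Tie1 window is chr4:118489850-118490099 (-). The Tie1 window overlaps the GENCODE span of Tie1, which reaches 118490061, and its marked string lies inside that span.
Pdgfra: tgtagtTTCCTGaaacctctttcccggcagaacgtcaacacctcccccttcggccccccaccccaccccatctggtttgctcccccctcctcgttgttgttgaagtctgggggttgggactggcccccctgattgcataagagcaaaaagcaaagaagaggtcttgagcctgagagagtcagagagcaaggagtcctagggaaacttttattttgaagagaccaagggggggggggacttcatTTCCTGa
Tek: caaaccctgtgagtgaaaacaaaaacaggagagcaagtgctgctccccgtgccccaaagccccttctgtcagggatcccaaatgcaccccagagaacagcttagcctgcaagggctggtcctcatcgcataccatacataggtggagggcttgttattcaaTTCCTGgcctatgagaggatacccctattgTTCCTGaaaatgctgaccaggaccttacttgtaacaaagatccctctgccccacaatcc
Tie1: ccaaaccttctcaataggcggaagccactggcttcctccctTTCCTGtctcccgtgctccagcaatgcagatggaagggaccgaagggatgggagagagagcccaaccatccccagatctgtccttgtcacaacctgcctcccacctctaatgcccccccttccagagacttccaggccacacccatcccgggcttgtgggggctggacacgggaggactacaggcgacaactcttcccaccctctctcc
The string occurred in all 4 of these genes' windows, Igf1 included, and in 25.7% of 32851 RefSeq promoter windows of the same length. The Igf1 window is counted but not printed, because it lies in an exon of GENCODE transcripts. Among the 36 of the 45 genes that matched the table, 11 held it. The other strings searched on both strands overlap it or each other and were CCGGAA, which is in 12.0% of windows and 0 of the 4, AGGAAG, in 29.5% and 2, GGAAGT, in 19.7% and 1, ACAGGAA, in 7.2% and 2, and CAGGAAG, in 10.8% and 0. The strings were chosen after the values were seen, and a match describes the letters only. Of the strings searched, the marked one alone occurred in all 4, so that count cannot be weighed against its share of all windows.

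The comparison of abemaciclib with control tumours asks which of these signals differed after treatment. None of the 30 tested genes passed an adjusted p of 0.05 in edgeR's quasi-likelihood test, where 0.00% of the 2925 panel genes tested did. At an unadjusted p under 0.05, 2 of the 30 were higher, Hgf and Angptl4, against 7.59% of all tested genes, and 0 were lower, against 5.81%. The log2 fold change was positive for 19 of the 30, beside 51.1% of all tested genes, with a median of 0.09 over the 30 and 0.01 over the panel. DESeq2 called 0 of the 30 and 2.05% of the panel, and limma-voom with quality weights called 1, Hgf, and 4.34% of the panel. Without abemaciclib tumours 3 and 10, edgeR called 0 of the 30 and 3.18% of the panel. At an unadjusted p under 0.05, 5 were then higher (Angptl4, Hgf, Igf1, Tek and Tie1), against 8.48% of the panel, and 1 lower (Igfbp3), against 8.89%. By family of symbol, the median log2 fold change was 0.35 for the 5 angiopoietin and TIE genes, Angptl4 among them, and 0.37 for Hgf and Met. It was 0.30 for the 3 PDGF genes and 0.09 for the 9 IGF genes, Igf2bp2 among them. For the 6 VEGF genes it was -0.04 and for the 5 FGF genes -0.27. A positive sign therefore stood beside 4 of 5, 2 of 2, 3 of 3, 6 of 9, 2 of 6 and 2 of 5 genes in that order.

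**Figure D1:**
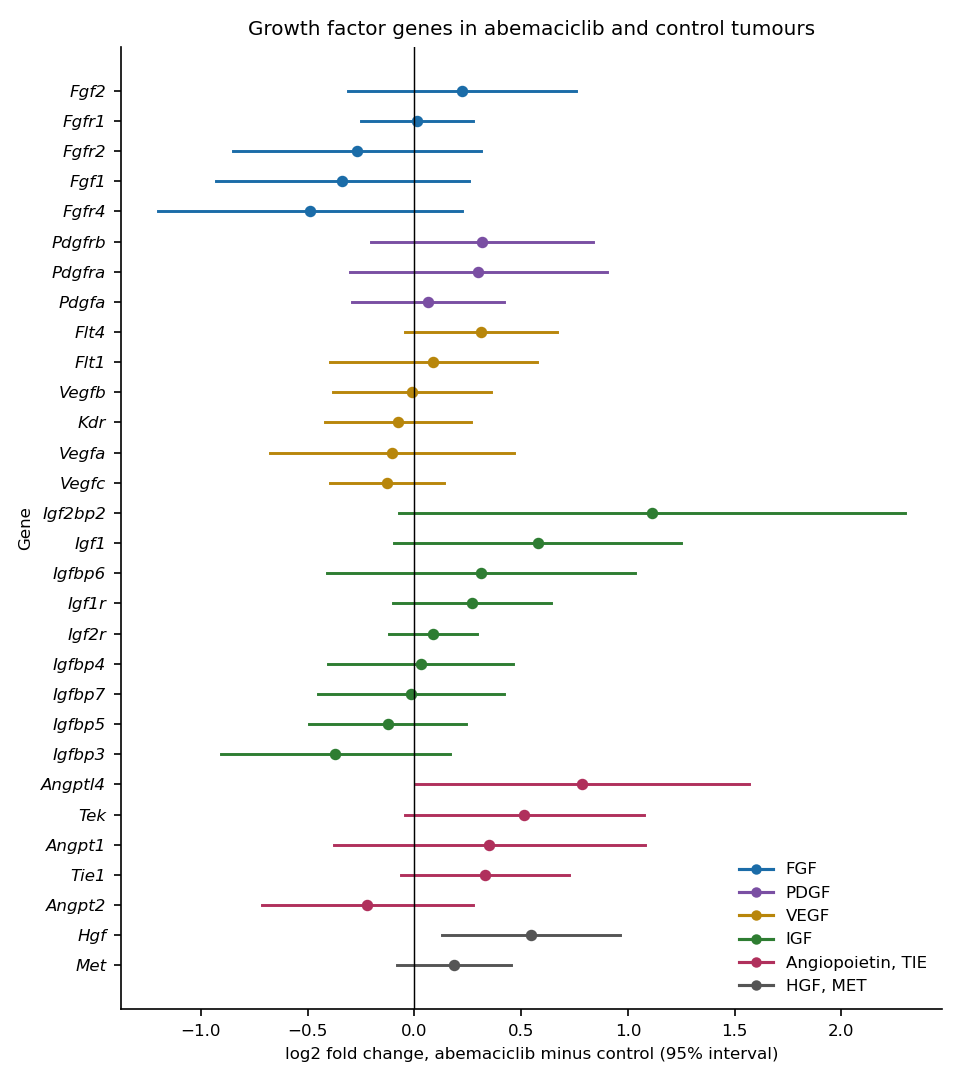
Log2 fold change of each of the 30 tested genes, abemaciclib over control, grouped by family. Points are edgeR estimates and bars their 95% intervals, and the interval lies wholly above 0 for Hgf and Angptl4 alone.

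HGF, made by stromal cells, is the ligand of the receptor MET on epithelium. Hgf (chr5:16553495-16620152) was at 5.58 CPM in the lowest control, 9.48 at the control median and 14.6 in the highest, and at 4.91, 14.8 and 21.9 CPM in the abemaciclib tumours. Of the 12 abemaciclib tumours, 11 were above the control median and 6 above the highest control, while tumour 9 was below every control, so the groups overlapped. The means were 10.3 ± 2.86 CPM (SD, n = 11) and 14.9 ± 4.77 CPM (SD, n = 12), giving a log2 fold change of 0.55 (SE 0.20), with an edgeR p of 0.0122 across the panel fit and an adjusted p of 0.210. Over the alternatives the adjusted p ran from 0.0452, by limma-voom, to 0.319.

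Met (chr6:17463800-17573980), the receptor, was at 252 to 444 CPM in controls with a median of 308, and at 206 to 478 CPM in abemaciclib tumours with a median of 399. As for its ligand, 11 of 12 abemaciclib tumours were above the control median, although only 4 were above the highest control and tumour 2 was below the lowest. The log2 fold change was 0.18 (SE 0.13, edgeR adjusted p 0.565).

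Angptl4 encodes a secreted inhibitor of lipoprotein lipase that also acts on vessels. At chr17:33773750-33781830, it ranged from 49.5 to 487 CPM in controls, with a median of 257, and from 104 to 749 CPM in abemaciclib tumours, with a median of 451. The abemaciclib tumours fell apart by a wide gap: tumours 1, 5, 6, 7, 11 and 12 held 601 to 749 CPM, above every control, and the other 6 held 301 CPM or less, within the control range. The log2 fold change was 0.79 (SE 0.38), with an edgeR p of 0.0485 across the panel fit and an adjusted p of 0.368, and means of 256 ± 142 CPM (SD, n = 11) and 441 ± 265 CPM (SD, n = 12).

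Angpt1 (chr15:42424723-42676977), the TIE2 agonist, was at 144 CPM in the lowest control, 197 at the control median and 397 in the highest. In abemaciclib tumours it ran from 46.5 to 641 CPM around a median of 218. The medians were close while the spread was wider: 5 abemaciclib tumours (1, 5, 7, 11 and 12) were above the highest control and 4 (2, 8, 9 and 10) below the lowest. The within-group SD of log2 CPM was 0.53 in controls and 1.24 in abemaciclib tumours, a difference in spread that was not tested. The log2 fold change was 0.35 (SE 0.35, edgeR adjusted p 0.705).

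Angpt2 (chr8:18690263-18741562), which can oppose angiopoietin 1, was at 4.10 to 15.4 CPM in controls and 3.21 to 12.3 CPM in abemaciclib tumours, with medians of 7.14 and 6.20. The ranges largely coincided, at a log2 fold change of -0.22 (SE 0.24, edgeR adjusted p 0.725). The log2 ratio of Angpt2 to Angpt1, which cancels the scaling of a library, averaged -4.81 ± 0.645 in controls (SD, n = 11) and -5.05 ± 1.56 in abemaciclib tumours (SD, n = 12), a difference of -0.233 (two-sided permutation p = 0.65, adjusted over 7 ratios to 0.78).

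Tek and Tie1 encode the receptors TIE2 and TIE1 of endothelial cells. Tek (chr4:94739289-94874976) was at 6.11 CPM in the lowest control, 14.4 at the control median and 21.02 in the highest, against 6.65, 19.4 and 33.5 CPM in abemaciclib tumours. Abemaciclib tumours 1, 4, 6, 7, 8 and 9 were above every control, and the remaining 6 lay within the control range. The means were 13.7 ± 4.89 CPM (SD, n = 11) and 19.6 ± 9.21 CPM (SD, n = 12), with a log2 fold change of 0.51 (SE 0.27, edgeR adjusted p 0.422).

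Tie1 (chr4:118471191-118490061) ran from 18.1 to 32.4 CPM in controls and from 16.1 to 58.2 CPM in abemaciclib tumours, with medians of 25.8 and 30.5. Here 5 abemaciclib tumours were above the highest control and 2 below the lowest, and the log2 fold change was 0.33 (SE 0.19, edgeR adjusted p 0.465). The summed level of the 5 tested endothelial markers Pecam1, Cdh5, Eng, Vwf and Erg was 308 to 722 CPM in controls and 255 to 585 CPM in abemaciclib tumours. All 5 had positive log2 fold changes, from 0.04 to 0.13, and 0 were called. Taken relative to the mean of these markers, Tek differed by 0.349 on the log2 scale (two-sided permutation p = 0.11, adjusted over 7 ratios to 0.642). Without abemaciclib tumours 3 and 10 this difference was 0.542 (permutation p = 0.00644, adjusted to 0.0451). Those tumours held the lowest Tek of the abemaciclib group, 6.71 and 6.65 CPM, so leaving them out raises the mean of that group. For Tie1 the difference over all tumours was 0.178 (permutation p = 0.248, adjusted to 0.642).

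VEGF-A is the main angiogenic ligand and a target of the hypoxia-inducible factors. Vegfa (chr17:46016993-46032369) was at 26.3 CPM in the lowest control, 54.3 at the control median and 87.6 in the highest, and at 23.8, 40.0 and 133 CPM in abemaciclib tumours. Abemaciclib tumour 3 was above every control, tumours 2 and 10 followed at 83.2 and 79.4 CPM, and the other 9 were below the control median. The log2 fold change was -0.11 (SE 0.28, edgeR adjusted p 0.907), and -0.462 without abemaciclib tumours 3 and 10 (edgeR adjusted p 0.318). Vegfc, a lymphatic growth factor, was at 21.4 to 36.4 CPM in controls and 18.7 to 39.6 CPM in abemaciclib tumours (log2 fold change -0.13, SE 0.13, edgeR adjusted p 0.705), and Vegfb, a ligand of VEGFR1, was at 10.8 to 33.0 and 11.5 to 29.0 CPM.

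Of the receptors, Kdr (chr5:75932827-75978458), which encodes VEGFR2, the main signalling receptor of VEGF-A, was at 21.1 to 44.8 CPM in controls around a median of 39.8, and at 17.2 to 58.6 CPM in abemaciclib tumours around 33.2. Although 10 of 12 abemaciclib tumours were below the control median, only tumour 12 was below the lowest control, and the log2 fold change was -0.08 (SE 0.17, edgeR adjusted p 0.885). Flt1, which encodes the decoy-like receptor VEGFR1, was at 21.5 to 63.2 CPM in controls and 9.25 to 54.4 CPM in abemaciclib tumours (log2 fold change 0.09, SE 0.24, edgeR adjusted p 0.907). Its sign turned without abemaciclib tumours 3 and 10, to -0.0135. Flt4, which encodes the lymphatic receptor VEGFR3, exceeded the control median in 10 of 12 treated tumours, at 11.8 to 27.3 CPM against 9.58 to 27.2 CPM (log2 fold change 0.31, SE 0.17, edgeR adjusted p 0.442). Both tested lymphatic endothelial markers had an unadjusted edgeR p under 0.05 and were not called: Prox1 at a log2 fold change of 0.79 (SE 0.37, edgeR adjusted p 0.353) and Pdpn, which fibroblasts also express, at 0.38 (SE 0.18, edgeR adjusted p 0.367). Their part in the Flt4 values was not tested.

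**Figure D2:**
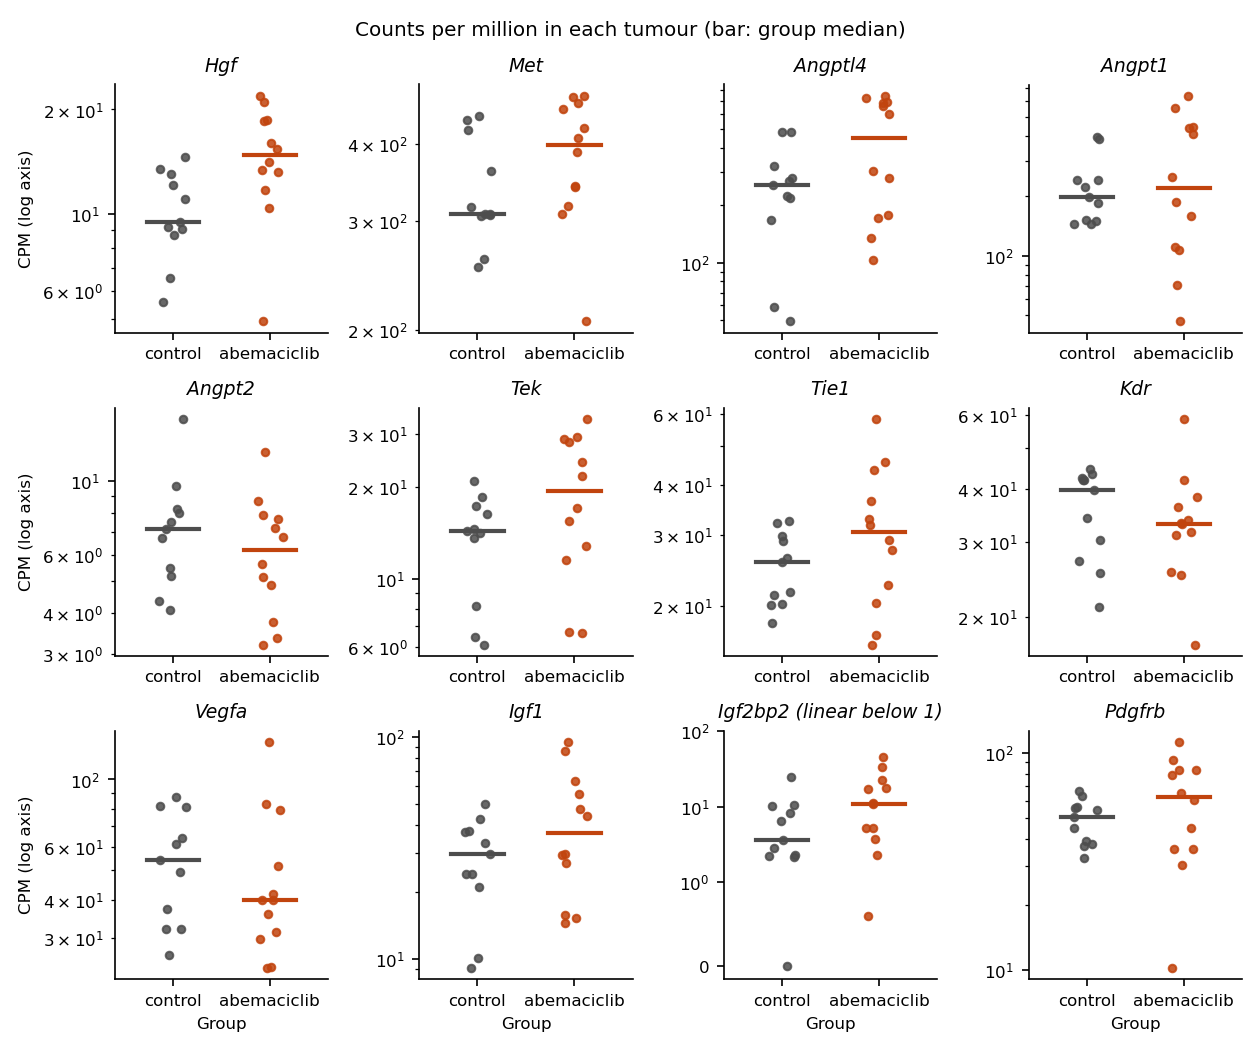
CPM of 12 genes in each tumour, control and abemaciclib side by side on log axes, with a bar at each group's median; the Igf2bp2 axis is linear below 1 CPM. Hgf and Tek each have 6 abemaciclib tumours above the highest control, and Angpt1 spreads both above and below its controls.

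The PDGF receptors mark stroma. Pdgfra (chr5:75152292-75198215), the receptor of fibroblasts, was at 29.5 to 126 CPM in controls around a median of 66.9, and at 22.4 to 231 CPM in abemaciclib tumours around 69.1. Tumours 9 and 6 held the highest levels, 231 and 165 CPM, and tumour 12 the lowest of all 23, with the other 9 abemaciclib tumours inside the control range (log2 fold change 0.30, SE 0.29, edgeR adjusted p 0.691). Over the 7 tested fibroblast markers the summed level was 3340 to 8640 CPM in controls and 1820 to 21300 CPM in abemaciclib tumours, 6 of 7 had positive log2 fold changes, and 0 were called.

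Pdgfrb, the receptor of pericytes and fibroblasts, was at 32.8 to 66.8 CPM in controls and 10.3 to 111 CPM in abemaciclib tumours, with medians of 50.5 and 62.8. Its abemaciclib tumours exceeded the controls at both ends, 5 above and 2 below (log2 fold change 0.32, SE 0.25, edgeR adjusted p 0.626). Pdgfa, a ligand made by epithelium, was at 41.8 to 89.7 CPM in controls and 38.2 to 138 CPM in abemaciclib tumours (log2 fold change 0.06, SE 0.17, edgeR adjusted p 0.916), the highest being tumour 9 again. The 6 tested mural markers, of which Acta2, Tagln and Myh11 are also expressed by myoepithelium, summed to 780 to 1220 CPM in controls and 774 to 1640 CPM in abemaciclib tumours. All 6 had positive log2 fold changes, with a median of 0.28, and 0 were called. Tagln alone had an unadjusted edgeR p under 0.05 (log2 fold change 0.44, SE 0.15, edgeR adjusted p 0.185).

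IGF1 signals growth and survival through IGF1R. Igf1 (chr10:87858265-87937042) was at 9.15 CPM in the lowest control, 29.9 at the control median and 50.1 in the highest, and at 14.6, 36.9 and 94.5 CPM in abemaciclib tumours. Abemaciclib tumours 1, 6, 7 and 9 were above every control, and 6 of 12 were below the control median. The means were 29.1 ± 12.9 CPM (SD, n = 11) and 43.6 ± 27.04 CPM (SD, n = 12), giving a log2 fold change of 0.58 (SE 0.33, edgeR adjusted p 0.455). All 6 tested macrophage markers had positive log2 fold changes, with a median of 0.46 and a summed level of 1430 to 3010 CPM in controls and 1910 to 4540 CPM in abemaciclib tumours; 4 of the 6 had an unadjusted edgeR p under 0.05 and 0 were called. How Igf1 varied with these markers across tumours is given further on.

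Igf1r, the signalling receptor, was at 71.7 to 236 CPM in controls and 117 to 320 CPM in abemaciclib tumours, 9 of which were above the control median of 131 (log2 fold change 0.27, SE 0.18, edgeR adjusted p 0.547). Igf2r, which clears IGF2 and sorts lysosomal enzymes, varied least among the 30 genes, with a within-group SD of 0.232 on the log2 scale, and was at 325 to 435 CPM and 276 to 539 CPM. The binding proteins hold IGFs in the extracellular space. Igfbp3 was at 482 to 1082 CPM in controls and 182 to 1036 CPM in abemaciclib tumours, with 6 of 12 below every control (log2 fold change -0.37, SE 0.26, edgeR adjusted p 0.565). Without abemaciclib tumours 3 and 10 the Igfbp3 value was -0.632 (edgeR adjusted p 0.172). Igfbp5, which is induced in the involuting mammary gland, was at 12164 to 33705 CPM and 9635 to 24611 CPM (log2 fold change -0.13, SE 0.18, edgeR adjusted p 0.805). Igfbp6, which prefers IGF2, had a log2 fold change of 0.31 (SE 0.35, edgeR adjusted p 0.738), and Igfbp4 and Igfbp7 had 0.03 and -0.01.

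Igf2bp2 encodes an RNA-binding protein that takes Igf2 transcripts among its targets. It lies at chr16:22059009-22163299 and had the highest log2 fold change of the 30 genes, 1.11 (SE 0.57), together with the highest within-group SD, 1.54 on the log2 scale and above 99.4% of tested genes, and an edgeR adjusted p of 0.407. Controls held 0 to 24.6 CPM around a median of 3.58 and abemaciclib tumours 0.603 to 44.6 CPM around 11.0. Although 10 of 12 abemaciclib tumours were above the control median, only tumours 9 and 3 were above the highest control. Abemaciclib tumours 3 and 10, set apart above by their basal markers, held 33.7 and 22.5 CPM.

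None of the 5 tested FGF genes had an unadjusted edgeR p under 0.05. Fgfr1, a receptor of epithelium and stroma, was at 114 to 335 CPM in controls and 195 to 333 CPM in abemaciclib tumours, giving a log2 fold change of 0.01 (SE 0.13, edgeR adjusted p 0.976) that turned negative with 2 other scalings, to -0.115 with library totals. Fgfr2, the epithelial receptor, was below the control median of 17.2 CPM in 11 of 12 abemaciclib tumours, at 4.71 to 24.0 CPM against 2.11 to 27.7 CPM, but 0 were below the lowest control (log2 fold change -0.27, SE 0.28, edgeR adjusted p 0.717). Fgfr4 was near the floor, at 1.03 to 4.29 and 0.404 to 3.92 CPM (log2 fold change -0.49, SE 0.35, edgeR adjusted p 0.570). Of the ligands, Fgf1 was at 3.81 to 32.2 and 4.36 to 15.7 CPM (log2 fold change -0.34, SE 0.29, edgeR adjusted p 0.648), and Fgf2 at 3.13 to 15.3 and 5.06 to 20.6 CPM, with 10 of 12 above the control median (log2 fold change 0.22, SE 0.26, edgeR adjusted p 0.745).

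The 15 genes below the filter were mostly FGF ligands. Fgf5, Fgf6 and Igfbp1 had 0 counts in all 23 tumours, out of 92646148 counts, which allows a level of up to 0.0322 CPM over the tumours together. Fgf3, Fgf4, Fgf8 and Fgf20 reached at most 1 count in any tumour, Fgf9 at most 3, Flt3 9, Fgf10 10, Pdgfb 19 and Fgf7 29. Fgfr3 had 2 to 76 counts, the highest in abemaciclib tumour 2. For 2 genes the counts were concentrated in few tumours. Igf2, the fetal growth ligand, had 640 of its 807 counts in abemaciclib tumour 2, or 137 CPM, with at most 37 counts in any other tumour. Fgfbp1, which carries FGFs out of the matrix, had 259 of its 725 counts in abemaciclib tumour 3, 154 in control tumour 8, 93 in abemaciclib tumour 10 and 62 in control tumour 3.

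**Figure D3:**
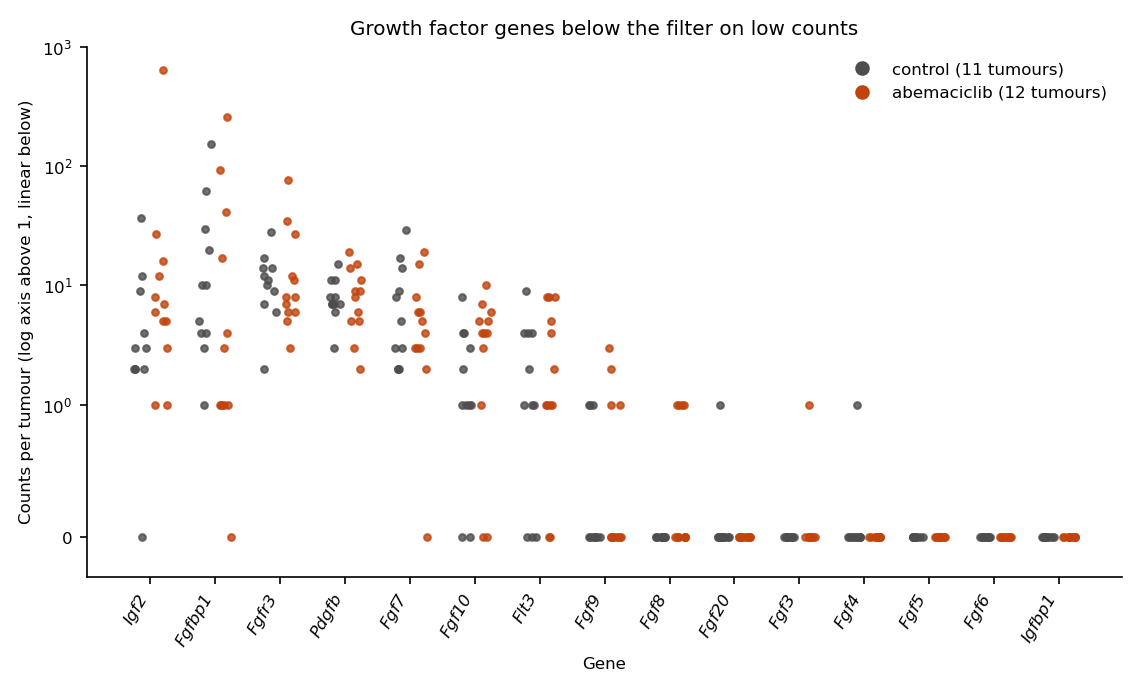
Counts in each tumour of the 15 genes that did not pass the filter on low counts. Igf2 in abemaciclib tumour 2 (640 counts) and Fgfbp1 in abemaciclib tumour 3 (259 counts) and control tumour 8 (154 counts) stand above the rest.

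The other genes of these pathways were taken from a list of 69 coreceptors, integrins, adaptors, antagonists and targets. Of these, 40 were on the panel and 35 were tested, of which 0 were called by edgeR, 3 were higher and 0 lower at an unadjusted p under 0.05 (7.59% and 5.81% of the panel), and the median log2 fold change was 0.09. The smallest p belonged to Itga5, an integrin subunit, with 48.9 ± 9.58 CPM in controls (SD, n = 11) and 76.7 ± 52.0 CPM in abemaciclib tumours (SD, n = 12), giving a log2 fold change of 0.64 (SE 0.25) and an edgeR adjusted p of 0.216. Plaur, the urokinase receptor, followed at 0.69 (SE 0.31, edgeR adjusted p 0.310) and Nrp1, a VEGF coreceptor, at 0.31 (SE 0.14, edgeR adjusted p 0.326). Pgf, placental growth factor and a ligand of VEGFR1, had 87.9 ± 28.0 and 61.8 ± 34.4 CPM, giving a log2 fold change of -0.50 (SE 0.25, edgeR adjusted p 0.391). It was the 1 gene of the 35 called, in a fit that called 3.18% of the panel in either direction and 2.09% lower, when abemaciclib tumours 3 and 10 were left out. Etv1, an ETS factor, was at -0.33 (SE 0.19, edgeR adjusted p 0.478).

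The genes varied more between tumours of a group than most of the panel. Their within-group SD of log2 CPM had a median of 0.565, against 0.367 over all tested genes, and 26 of the 30 were above the panel median. Genes were not matched on expression level for this, so a part of level in the difference was not tested. The most variable, Igf2bp2, had a mean log2 CPM of 2.77, and the next, Angptl4, had 8.11. The next question was how the 30 genes varied with each other and with cell type markers across tumours. Over 48 relations of 16 gene and marker list pairs, in both groups together and in each group, 6 of the 16 pooled relations passed a permutation test of Pearson's r after adjustment.

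Vegfa rose with the mean of 10 hypoxia response genes, such as Slc2a1, Ldha and Car9 (Pearson's r = 0.827, permutation adjusted p 0.00024; Spearman's rho = 0.77, adjusted p 0.00096; n = 23). Within groups r was 0.695 in controls and 0.908 in abemaciclib tumours, and without the 2 tumours farthest from the median of the hypoxia genes, abemaciclib tumours 3 and 10, it was 0.776. Angptl4, also known as a hypoxia target, had an r of -0.186 with the same genes (permutation adjusted p 0.493). Pdgfra rose with the fibroblast markers at r = 0.827 (permutation adjusted p 0.00024, rho 0.748). The control value of 0.763 rested on control tumours 3 and 8, since it was 0.18 without them, and the abemaciclib value was 0.849.

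Next, the endothelial receptors were set against the endothelial markers. Tek and Tie1 rose with the endothelial markers at r = 0.703 and 0.648 (permutation adjusted p 0.00288 and 0.0076, rho 0.712 and 0.706), with within-group values of 0.673 and 0.739 for Tek and 0.438 and 0.78 for Tie1 in control and abemaciclib tumours. Kdr reached r = 0.532 (permutation adjusted p 0.0322), but its rho of 0.36 did not pass (adjusted p 0.249), the r was 0.249 in controls, and without abemaciclib tumour 12 r was 0.415 (permutation adjusted p 0.129). Within abemaciclib tumours Kdr passed both tests, at r = 0.781 and rho = 0.825 (permutation adjusted p 0.0153 and 0.0113, n = 12). Without the 2 farthest, abemaciclib tumours 6 and 12, this r was 0.618. Flt1, Flt4 and Angpt2 had r of 0.302, 0.36 and 0.263 with these markers (permutation adjusted p 0.266, 0.191 and 0.328). Differences between these correlations were not tested.

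Igf1 rose with the adipocyte markers Lpl, Pparg and Fabp4 at r = 0.634 (permutation adjusted p 0.00878, rho 0.634), with 0.572 in controls and 0.634 in abemaciclib tumours. The other adipocyte markers on the panel, Adipoq and Lep, were below the filter on low counts. Whether this relation reflects adipocytes was not tested. With the macrophage markers Igf1 had an r of 0.335 (permutation adjusted p 0.212). Pdgfrb had an r of -0.191 with the mural markers, Angpt1 0.369 with the same, and Hgf 0.177 with the fibroblast markers, with permutation adjusted p of 0.493, 0.182 and 0.505. Hgf was low in abemaciclib tumour 9, which had the highest fibroblast level of all 23, and without that tumour r was 0.466. Without the 2 tumours farthest on the fibroblast markers, abemaciclib tumours 5 and 12, the r of Hgf was 0.255. In controls it was 0.667 (permutation adjusted p 0.0693), and -0.0189 without control tumours 3 and 8. In abemaciclib tumours it was -0.0845 (permutation adjusted p 0.823). Of the epithelial pairs, Fgfr2 with the luminal markers had an r of 0.473 (permutation adjusted p 0.0654) that was 0.18 without control tumours 6 and 8. Igf1r with the luminal markers had an r of -0.0424 that turned to 0.467 without the same 2 tumours. The groups had opposite signs, at -0.5 in controls (permutation adjusted p 0.212, and -0.0272 without control tumours 5 and 8) and 0.703 in abemaciclib tumours (permutation adjusted p 0.0322, rho 0.664 with adjusted p 0.0964), a difference that was not tested.

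Among themselves, the 30 genes form 435 pairs, and 13 pairs passed both Pearson's and Spearman's permutation tests after adjustment over all 435, with 12 positive and 1 negative. All 13 had the same sign in each group. A set of 4 genes, Igf1, Tek, Tie1 and Pdgfra, was joined by 5 of these pairs: Igf1 with Tek at r = 0.788 and rho = 0.783 (n = 23, permutation adjusted p 0.00435), Tek with Tie1 at 0.742, Igf1 with Pdgfra at 0.739, Igf1 with Tie1 at 0.685 and Pdgfra with Tie1 at 0.679. These are the genes whose windows before a RefSeq start are printed above or counted with them. Igf1 with Tek held at 0.77 within controls and 0.769 within abemaciclib tumours.

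Angpt1 rose with Angptl4 at r = 0.728 and rho = 0.821 (permutation adjusted p 0.00942 and 0.00435), with 0.666 in controls and 0.889 in abemaciclib tumours; the 5 abemaciclib tumours above every control for Angpt1 were also above every control for Angptl4. Angpt1 also rose with Igfbp5 at 0.667. The 1 negative pair was Tek with Vegfa at r = -0.751 and rho = -0.695 (permutation adjusted p 0.00942 and 0.0286), with -0.521 in controls and -0.874 in abemaciclib tumours. Without abemaciclib tumours 3 and 10 its r was -0.68 and it no longer passed both tests. The other positive pairs were Flt1 with Pdgfrb at 0.772, for which r was 0.16 in controls and 0.907 in abemaciclib tumours, Igf1r with Igf2bp2 at 0.676, Fgf2 with Tek at 0.657, Igf1 with Igfbp6 at 0.608 and Igfbp3 with Vegfa at 0.593. Of the 13 pairs, 4 passed in each of the 7 other settings tried, namely Angpt1 with Angptl4, Igf1 with Pdgfra, Igf1 with Tek and Tek with Tie1. The number of passing pairs fell to 6 without abemaciclib tumours 3 and 10, to 6 without abemaciclib tumour 9 and to 8 without abemaciclib tumour 12.

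**Figure D4:**
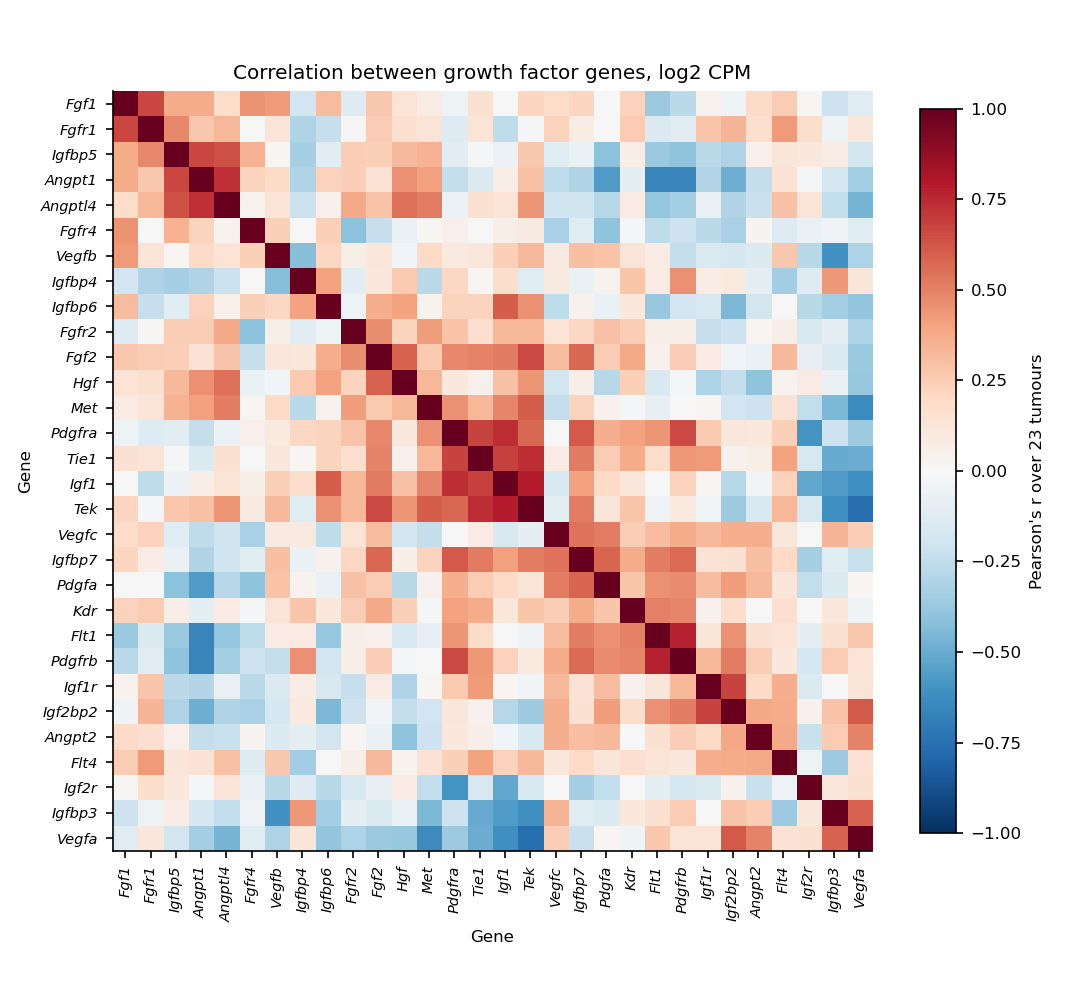
Pearson's r of log2 CPM over 23 tumours for each pair of the 30 tested genes, with red for positive and blue for negative values. Igf1, Tek, Tie1 and Pdgfra form a positive block. Tek with Vegfa is the negative pair that passed (r = -0.751), though not without abemaciclib tumours 3 and 10.

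Since abemaciclib acts on the cell cycle, the genes were also set against the mean log2 CPM of 9 G2/M genes, such as Mki67 and Top2a, a comparison chosen after the values were seen. For all 9 G2/M genes the log2 fold change was below 0, at a median of -1.04, each with an unadjusted edgeR p under 0.05 and an adjusted p of 0.124 or more. Their mean was 4.73 to 7.03 in controls and 2.75 to 6.45 in abemaciclib tumours. Over 90 relations, 30 genes in both groups together and in each group, 3 genes passed Pearson's and Spearman's permutation tests within the abemaciclib group: Angpt1 at r = -0.804 and rho = -0.86 (permutation adjusted p 0.0294 and 0.0183, n = 12), Angptl4 at -0.776 and -0.762 (permutation adjusted p 0.0419 and 0.0338) and Igf2bp2 at 0.752 and 0.776 (permutation adjusted p 0.0419 and 0.0338). The abemaciclib tumours with less G2/M expression were thus those with more Angpt1 and Angptl4 and less Igf2bp2.

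Without the 2 tumours farthest from the median of the G2/M genes these values were -0.762, -0.77 and 0.772. Without abemaciclib tumours 3 and 10 they were -0.849, -0.673 and 0.697, and Angpt1 alone passed. Angptl4 also failed to pass both tests without abemaciclib tumour 9 (r = -0.816) and without abemaciclib tumour 12 (r = -0.783, permutation adjusted p 0.0587). With library totals as the scaling, Igf2bp2 alone of the 3 passed and Angpt1 and Angptl4 had -0.738 and -0.709. In controls the values for Angpt1 and Angptl4 were -0.682 and -0.644, short of the threshold (permutation adjusted p 0.0853 and 0.12). Igfbp5 was the gene that passed there, at r = -0.862 and rho = -0.845 (permutation adjusted p 0.023 and 0.0295, n = 11). Its r was -0.637 without the 2 farthest tumours, and with library totals it did not pass (r = -0.655, permutation adjusted p 0.108). In both groups together Angptl4, Met, Tek and Angpt1 passed at r = -0.731, -0.664, -0.661 and -0.629. The G2/M genes themselves were lower in the abemaciclib group, so these values mix the difference between groups with that between tumours. Without abemaciclib tumours 3 and 10, Tek (r = -0.64) and Angpt1 (r = -0.602, permutation adjusted p 0.0503) no longer passed both tests. With library totals Met, Tek and Angpt1 did not pass, at r = -0.298, -0.533 and -0.513 (permutation adjusted p 0.323, 0.0591 and 0.0591). Vegfa had an r of 0.725 in abemaciclib tumours (permutation adjusted p 0.0501).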

How the data were processed

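Expression was measured in 11 control and 12 abemaciclib tumours with an Ion AmpliSeq custom panel. The table deposited by the authors holds whole-number counts per gene, without normalization. The submitters' processing notes name mm10 as the build. Neither the aligner nor the counter is given in the sources used here, and where each amplicon lies is likewise not given. Amplicon counts include PCR copies, so floors cover counting error only.

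Counts were tested over the whole panel with edgeR 4.0.16 in R 4.3.3 (filterByExpr with the groups given, TMM, glmQLFit and glmQLFTest, two-sided, Benjamini-Hochberg adjustment over 2925 genes, threshold 0.05). The biological coefficient of variation was 32.6%. CPM use TMM-scaled totals. Ratios and correlations used log2 CPM with a prior count of 2 and permutation tests with 100000 resamples, two-sided. Fgfbp1, below the filter, was taken as log2 of CPM plus 0.5. DESeq2 1.42.0 and limma 3.58.1 gave alternatives, with other scalings, other filters and left-out tumours. The scripts were tested on simulated data.

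Gene positions are those of GENCODE M21 on GRCm38, the assembly mm10 names, 1-based. The rule for named genes takes up to 3 genes with the smallest p in each role, a fixed set of ligands and receptors, and the 5 other pathway genes with the smallest p. The members and lists were chosen with earlier results of these data known.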

Additional observations from a re-analysis of the deposited data

How the results depend on the processing

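None of the 30 tested genes was called by edgeR under another scaling, filter or left-out tumour (0 in each of the 23 fits without 1 tumour), nor by DESeq2, and limma-voom called 1, Hgf (log2 fold change 0.624, adjusted p 0.0452). Of the pathway genes, 1 (Pgf, lower) was called without abemaciclib tumours 3 and 10, in a fit that called 93 of 2924 panel genes (3.18%). The 23 fits without 1 tumour called 0 of them, and up to 47 panel genes (without abemaciclib tumour 10). Of the 7 ratios, 1 passed without abemaciclib tumours 3 and 10, Tek to endothelial markers. These 2 tumours held the lowest Tek of the abemaciclib group. Library totals moved the median log2 fold change of all genes to -0.119, and with them Fgfr1 was at -0.115, Igf2r at -0.0453 and Pdgfa at -0.0428. Signs also turned for Fgfr1 with upper-quartile scaling (-0.0189), Pdgfa with limma-voom (-0.0572), and Flt1 (-0.0135), Vegfb (0.0645) and the ratio of Pdgfra to fibroblast markers (0.0313) without abemaciclib tumours 3 and 10. Over fits without 1 tumour, Fgfr1 ran from -0.0651 to 0.0528, Flt1 from -0.00159 to 0.255, Pdgfa from -0.0883 to 0.123 and Vegfb from -0.0804 to 0.0727. The r of Igf1r with luminal markers was 0.124 with library totals and 0.467 without the 2 farthest tumours. That of Fgfr2 with luminal markers passed with upper-quartile scaling (0.5, adjusted p 0.0469) and without abemaciclib tumour 12 (0.539, adjusted p 0.0458). Of the member pairs, 13 passed, 6 without abemaciclib tumours 3 and 10, and 6 to 8 without abemaciclib tumour 9 or 12; with library totals 12 passed, 8 of them among the 13. Of the genes passing against the G2/M genes in abemaciclib tumours, 1 of the 3 still passed without tumours 3 and 10, and Angpt1 and Igf2bp2 but not Angptl4 without tumour 9 or 12, where the count was 2 to 3. The cause of these changes was not tested.

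Tumours of the 2 groups share replicate numbers, and the labels do not say that these numbers pair tumours. Over 11 same-numbered pairs, the correlations of their deviations ran from -0.428 to 0.453, with 5 over 0.1. Of the controls, 2 correlated best with their own number. No reference distribution was drawn, so these values cannot decide whether the numbers pair tumours, and the main fit used no block. With the replicate block 0 of the 30 genes were called and Angpt1 turned to -0.0858.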

Other observations

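Fgfbp1, although below the filter on low counts, varied with Vegfa. The 3 tumours with the most Fgfbp1, abemaciclib tumour 3 (49.6 CPM), control tumour 8 (32.4 CPM) and abemaciclib tumour 10 (21.3 CPM), held 133, 87.6 and 79.4 CPM of Vegfa, but control tumour 11, with 82.0 CPM of Vegfa, held 1.28 CPM of Fgfbp1. Over the 23 tumours Fgfbp1 and Vegfa had a Pearson's r of 0.787 and a Spearman's rho of 0.711 (permutation p = 2e-05 and 0.00029, adjusted over 9 relations to 0.00018 and 0.00261), with r of 0.624 in controls and 0.867 in abemaciclib tumours. It was 0.679 without the 2 tumours farthest from the median of Vegfa and 0.693 without abemaciclib tumours 3 and 10. With the hypoxia response genes r was 0.662 (permutation adjusted p 0.00201), and 0.238 in controls. With the basal markers r was 0.533 (permutation adjusted p 0.0131), but rho was 0.398 and did not pass (permutation adjusted p 0.128). That r was 0.232 without abemaciclib tumours 3 and 10, the 2 farthest. Within groups the rho of Fgfbp1 with Vegfa did not pass, at 0.573 in controls and 0.643 in abemaciclib tumours (permutation adjusted p 0.128 and 0.0862). These relations were chosen after the values were seen, and many tumours held few Fgfbp1 counts.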
